A study of Mus musculus with 6 samples.

Results

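The collagen gene family was described in the pancreas of mice that lack Rkip-1, the Raf kinase inhibitor protein encoded by Pebp1, against wild-type mice. Its members were taken from the platform annotation, as every probe set that names a single gene whose symbol has the form of a collagen alpha chain. This gave 82 probe sets of 42 chains among 45037 probe sets and 18193 genes tested, out of 44 collagen chain genes in the RefSeq table. Col28a1 and Col6a6 had no such probe set. RNA came from whole pancreas of adult mice, with 3 Rkip-1 knockout samples (KO) and 3 wild-type samples (WT), all 8 weeks old, of 1 colony kept on a C57BL/6 background. Each sample was hybridised to 1 Affymetrix array. The labels number the samples as biological replicates and give neither the number of mice behind each, their sex or litter, the deleted part of the gene nor any cell type restriction of the knockout. The title of the series gives the proliferation of pancreatic beta cells as its subject.

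Collagens are built from alpha chains that wind around each other as a triple helix. Fibrillar collagens (types I, II, III, V, XI, XXIV and XXVII) assemble into the tensile fibrils of connective tissue, and in the pancreas they lie around lobules, ducts and vessels. Type IV collagen forms the sheet of the basement membrane under acini, ducts, islet capillaries and other vessels, and types XV and XVIII sit in the basement membrane zone. The remaining chains include the beaded filaments of type VI, the anchoring fibrils of type VII, chains that attach to the surface of fibrils (types IX, XII, XIV and others), short-chain networks (types VIII and X) and membrane-spanning collagens. Fibroblasts and stellate cells make most of the fibrillar chains, whereas epithelial and endothelial cells also make type IV.

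To show what is known of the start sites of chains that the results turn on, the 250 bases before the RefSeq start were read from assembly GRCm38.p6, for fibrillar chains whose 3 KO arrays all lay below the WT arrays at the brightest probe set (Col1a2 and Col3a1), for a beaded filament chain with that pattern (Col6a2) and for a chain without it (Col7a1). Capitals mark the letters TATAAA (the TATA box), the letters CCAAT (the CCAAT box) and the letters GGGCGG (a GC box), searched on both strands. In Col6a2 the last stretch of capitals holds overlapping GC box matches. The TATAAA letters of Col3a1 lie at bases -117 to -112 from the start, and whether they act as a TATA box was not tested. The positions are chr6:4505368-4505617 (plus strand), chr1:45311288-45311537 (plus strand), chr10:76623405-76623654 (minus strand) and chr9:108953336-108953585 (plus strand), each a flank upstream of the transcript.
Col1a2: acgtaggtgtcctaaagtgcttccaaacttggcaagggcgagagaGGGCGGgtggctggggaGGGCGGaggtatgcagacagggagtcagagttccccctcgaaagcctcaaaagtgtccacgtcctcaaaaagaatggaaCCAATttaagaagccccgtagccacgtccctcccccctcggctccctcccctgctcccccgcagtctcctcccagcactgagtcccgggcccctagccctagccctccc
Col3a1: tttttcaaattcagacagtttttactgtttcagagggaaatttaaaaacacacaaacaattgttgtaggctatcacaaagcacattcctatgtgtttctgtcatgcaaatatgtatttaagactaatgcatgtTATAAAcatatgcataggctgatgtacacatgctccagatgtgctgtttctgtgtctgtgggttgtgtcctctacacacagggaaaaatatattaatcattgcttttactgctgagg
Col6a2: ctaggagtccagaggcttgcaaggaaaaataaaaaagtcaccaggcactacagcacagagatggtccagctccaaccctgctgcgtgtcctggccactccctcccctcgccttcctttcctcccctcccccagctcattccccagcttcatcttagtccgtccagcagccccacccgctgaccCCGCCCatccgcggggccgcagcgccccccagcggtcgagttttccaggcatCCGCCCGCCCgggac
Col7a1: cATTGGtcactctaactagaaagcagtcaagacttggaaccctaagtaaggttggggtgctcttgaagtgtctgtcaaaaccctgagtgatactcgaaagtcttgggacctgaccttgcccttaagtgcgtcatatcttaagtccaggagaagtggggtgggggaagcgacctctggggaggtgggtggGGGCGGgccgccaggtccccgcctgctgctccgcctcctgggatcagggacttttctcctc
The genes for the chains of the most common type IV collagen, Col4a1 and Col4a2, are transcribed in opposite directions from a shared start region on chromosome 8. By RefSeq, Col4a1 starts at 11312826 on the minus strand and Col4a2 at 11312805 on the plus strand, 21 bases apart. The 22 bases at chr8:11312805-11312826 therefore lie within both transcripts, and not upstream of either. They are shown on the plus strand.
Col4a1 and Col4a2: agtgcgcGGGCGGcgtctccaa
The GGGCGG letters lay in 20 of the 33 chain promoters that the RefSeq table holds (60.6%), against 42.6% of 21262 promoters of protein-coding genes. CCAAT lay in 12 of 33 (36.4%, against 35.4%) and TATAAA in 5 of 33 (15.2%, against 11.6%). Among the 6 chains with a promoter in the table whose KO arrays all lay below WT, 3 held GGGCGG and 3 held CCAAT. The window of Col6a3, a further beaded filament chain with that pattern, is not shown and held none of the searched letters. These matches describe the letters of the windows and were not tied to a factor.

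The arrays carried the genotype of their labels. Pebp1 measured 5.89, 6.50 and 5.71 in KO replicates 1, 2 and 3 and 9.81, 10.01 and 9.81 in WT replicates 1, 2 and 3 (log2 RMA level), a difference of -3.84 with a 95% interval of -4.25 to -3.44 (limma, adjusted p = 5.05e-05). The pancreatic label was met by the acinar enzyme Cpa1, at 14.35 to 14.39, and by insulin (Ins2), at 12.53 to 12.70, in all 6 arrays. KO replicate 1 stood apart in fat and in the tissue surface: the adipocyte gene Car3 measured 2.51 there and 9.19 to 10.86 in the other 5 arrays, and the mesothelial gene Upk3b 3.70 against 4.80 to 5.75. These genes were named after their values were seen. Results for the sets of chains and for many single chains are therefore also given without this array. The female-specific RNA Xist lay at 9.09 to 9.79 in KO replicates 2 and 3 and WT replicate 3 and at no more than 4.43 in the other arrays, so sex was mixed and unequal between the genotypes.

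Collagen chains with a clear signal were mostly lower in the KO pancreas, by small amounts, and none passed the threshold. By the brightest probe set of each gene, 0 of 42 chains had an adjusted p under 0.05 in limma in either direction, where 0.0275% of all genes were called lower and 0.104% higher. At an unadjusted p under 0.05, 10 of 42 chains were lower and 2 were higher in KO, where 5.58% of all genes were lower and 4.55% higher. All 3 KO arrays lay below all 3 WT arrays in 10 chains and above them in 4, against 7.56% and 6.87% of all genes. The median difference over the 42 chains was -0.07 on the log2 scale, with 26 lower and 16 higher, and the median over all 18193 genes was -0.0006 with 9126 lower. The smallest adjusted p of a chain was 0.27. Over all 82 probe sets, 0 passed in limma, where 0.0244% of 45037 probe sets were called lower and 0.0733% higher. At an unadjusted p under 0.05, 16 of the 82 were lower and 3 higher, against 4.66% and 4.01% of all probe sets. In bulk tissue, fewer matrix-producing cells and less collagen RNA per cell cannot be told apart.

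The 75th percentile of the values on an array was 4.54 (log2, median over arrays), and 17 chains had a mean above it. Of these, 14 were lower and 3 higher in KO, with a median of -0.25, and 9 had an unadjusted p under 0.05, every one lower in KO. None of the 17 had an adjusted p under 0.05 in limma, where 0.0559% of genes above that level were called lower. Of 7159 genes equally above that level, 61.6% were lower, the median was -0.04, and 9.67% were lower and 4.61% higher at that p. The KO arrays lay wholly below WT in 9 of the 17 and wholly above in 1, against 12.6% and 6.06% of these genes. The other 25 chains, among them the cartilage chains of types IX and XI, were dim, with 12 lower and 13 higher and a median of 0.00. A difference in dim probe sets is compressed and can be too small. Without KO replicate 1, the 17 brighter chains still had 14 lower, a median of -0.24 and 7 lower at an unadjusted p under 0.05. After a second quantile normalization of all 6 arrays they had 14 lower, a median of -0.18 and 7 lower at that p. The median over all genes was -0.0003 without KO replicate 1 and 0.0072 after that normalization. The share of genes lower at that p was not counted in these settings, so an excess over it is not shown there.

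**Figure D1:**
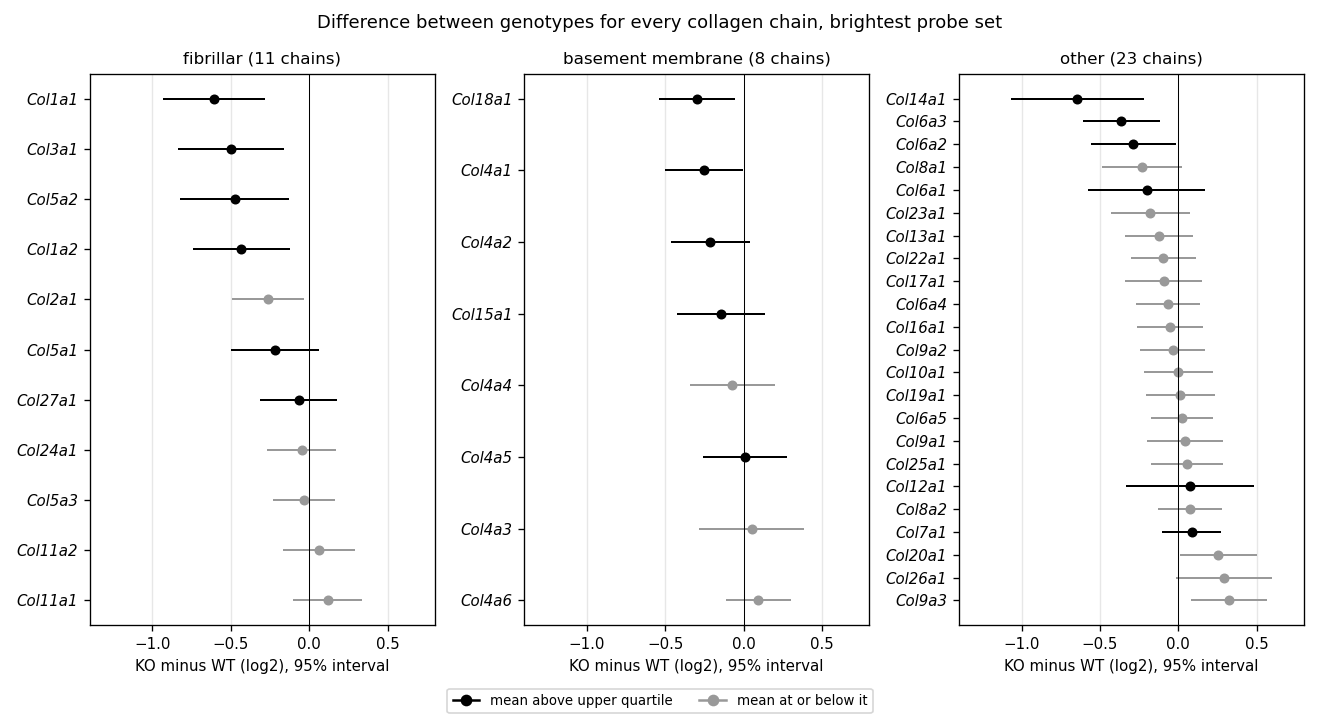
Difference between genotypes, KO minus WT on the log2 scale, for each of the 42 chains by its brightest probe set, with the 95% interval of the moderated fit (3 arrays per group). Black points are chains whose mean lay above the upper quartile of 4.54 and grey points the dimmer ones. Col1a1 at -0.61 and Col14a1 at -0.64 lie farthest to the left, and Col9a3 at 0.32 farthest to the right.

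Among the fibrillar chains, Col1a1, Col1a2, Col3a1 and Col5a2, which build the fibrils of soft tissue, had the lowest differences, and none passed after adjustment. Of 11 fibrillar chains 9 were lower and 2 higher, with a median of -0.22. In 5 the KO arrays all lay below WT, and the same 5 had an unadjusted p under 0.05, namely those 4 and Col2a1, where 7.56% and 5.58% of all genes did so.

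Col1a1, the main chain of type I collagen, measured 6.33, 6.16 and 6.48 in KO replicates 1, 2 and 3 and 7.19, 6.95 and 6.65 in WT. Every KO array lay below every WT array, with WT replicate 3 closest to KO. The difference was -0.61 (95% interval -0.93 to -0.29), a 1.52-fold lower level, with an unadjusted p of 0.0019 and an adjusted p of 0.27. It was -0.61 without KO replicate 1 as well. A second Col1a1 probe set measured -0.38.

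Col1a2, the partner chain of type I, measured 9.15, 9.40 and 9.56 in KO and 9.87, 9.96 and 9.57 in WT. The KO arrays lay below the WT arrays, by a narrow gap between KO replicate 3 and WT replicate 3. The difference was -0.43 (-0.74 to -0.13, adjusted p = 0.4), and it was -0.32 without KO replicate 1. A second probe set above the upper quartile gave -0.53, with overlapping groups.

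Col3a1, the homotrimeric chain of the thin reticular fibrils, measured 10.68, 11.09 and 11.18 in KO and 11.50, 11.66 and 11.28 in WT. KO replicate 1 was the lowest array, and the other KO arrays also lay below WT. The difference was -0.50 (-0.83 to -0.17, adjusted p = 0.383) and shrank to -0.34 without KO replicate 1. Its second probe set gave -0.59 with overlapping groups, and KO replicate 1 was again the lowest array.

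Type V chains are minor components that set the diameter of type I fibrils. Col5a2, the gene next to Col3a1 on chromosome 1, measured 6.84, 7.26 and 7.27 in KO and 7.44, 7.87 and 7.49 in WT, a difference of -0.48 (-0.82 to -0.13, adjusted p = 0.414). Here too KO replicate 1 was lowest, and without it the difference was -0.33. A second Col5a2 probe set, with a mean below the upper quartile, gave -0.55 (-0.85 to -0.26, adjusted p = 0.275) without overlap. There KO replicate 1 was the highest KO array, at 4.29. Col5a1 differed between probe sets. Its brightest gave 5.21, 5.20 and 5.62 in KO against 5.60, 5.55 and 5.54 in WT, with overlapping groups. The difference was -0.22 (-0.49 to 0.05, adjusted p = 0.662). It was -0.15 without KO replicate 1, -0.15 without KO replicate 2 and -0.36 without KO replicate 3. Another probe set, with a lower signal, gave 4.18, 4.36 and 4.63 against 4.99, 4.92 and 5.03, a difference of -0.59 (-0.85 to -0.32). Its unadjusted p of 0.000639 was the smallest of all 82 collagen probe sets, and its adjusted p was 0.188.

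Col2a1, the main chain of cartilage fibrils, lay near the arrays' median of 3.01, at 3.17, 3.20 and 3.14 in KO and 3.32, 3.38 and 3.60 in WT. The difference was -0.26 (-0.48 to -0.04, adjusted p = 0.495) at a level where presence of the transcript is not shown. It was -0.26 without KO replicate 1 as well, with an unadjusted p of 0.053 in limma. The other 5 fibrillar chains, Col5a3, Col11a1, Col11a2, Col24a1 and Col27a1, differed by -0.07 to 0.12, with no unadjusted p below 0.252. Only Col27a1 of these had a mean above the upper quartile.

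**Figure D2:**
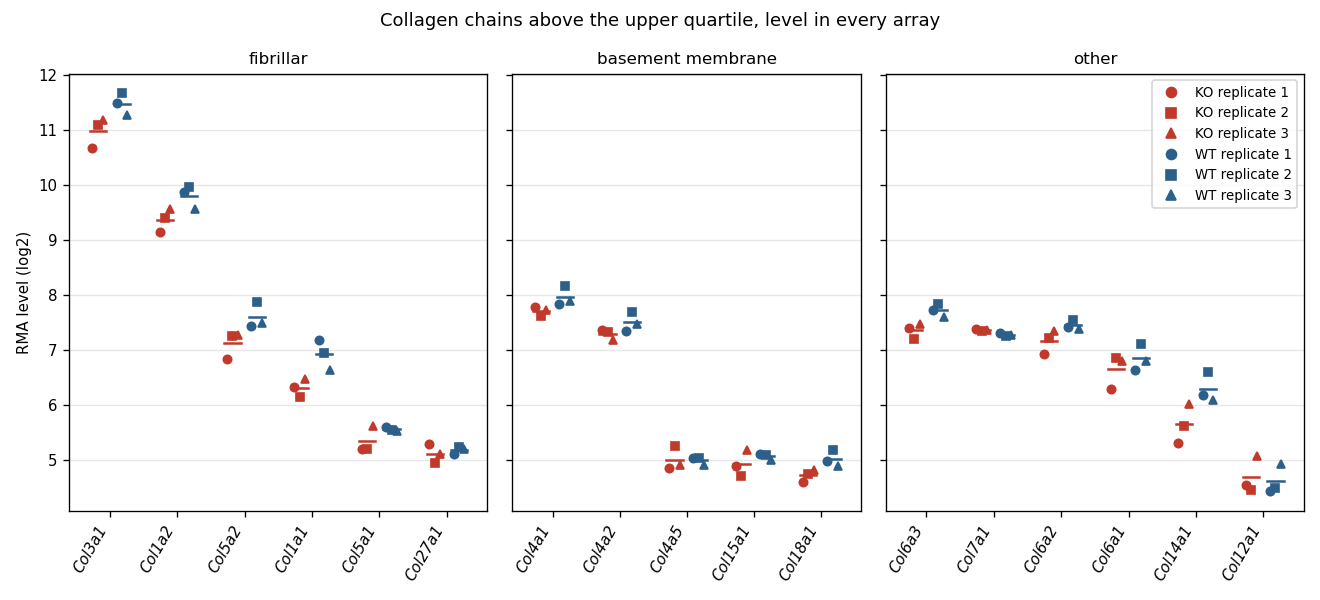
Level (log2 RMA) in every array of the 17 chains with a mean above the upper quartile, in 3 panels by class, with short lines at the group means (n = 3 each). In Col1a1, Col3a1, Col5a2 and Col6a3 the 3 KO points (red) sit below the 3 WT points (blue). In Col7a1 the KO points sit just above the WT points, and in Col4a5 the groups overlap.

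Basement membrane chains differed less. Of 8, 5 were lower and 3 higher, with a median of -0.11, and 2 had an unadjusted p under 0.05, both lower and both with the KO arrays wholly below WT (5.58% and 7.56% of all genes). Col4a1 measured 7.78, 7.62 and 7.74 in KO and 7.84, 8.16 and 7.90 in WT. The gap between the groups was narrow, with KO replicate 1 and WT replicate 1 next to each other. The difference was -0.25 (-0.49 to -0.01, adjusted p = 0.558), and a second probe set gave -0.21. Col4a2, from the shared start region shown above, measured 7.36, 7.33 and 7.19 in KO and 7.35, 7.69 and 7.48 in WT, a difference of -0.21 (-0.46 to 0.03, adjusted p = 0.627). WT replicate 1 lay within the KO range. WT replicate 2 was the highest array for both chains, and without it 0 basement membrane chains had an unadjusted p under 0.05 in limma. Col4a1 then differed by -0.15 and Col4a2 by -0.12, and the median over the 5 brighter chains was -0.13 in place of -0.21. After a second quantile normalization of all arrays that median was -0.14, with 1 chain lower at that p.

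Col18a1, whose C-terminal fragment is endostatin, gave opposite signs at its probe sets. The brightest measured 4.60, 4.75 and 4.83 in KO and 4.99, 5.18 and 4.90 in WT, a difference of -0.30 (-0.53 to -0.06, adjusted p = 0.463). That difference was -0.24 without KO replicate 1. The other probe set measured 4.46, 4.77 and 4.73 against 4.59, 4.82 and 4.32, a difference of 0.08 (-0.23 to 0.39), and its groups overlapped. Col15a1, the related chain, measured 4.90, 4.71 and 5.19 in KO and 5.12, 5.11 and 5.01 in WT, a difference of -0.15 (-0.42 to 0.13, adjusted p = 0.786). It was -0.04 without KO replicate 2 and -0.27 without KO replicate 3. Col4a5 was above the upper quartile at 4.86 to 5.25 in every array, with a difference of 0.01 (-0.25 to 0.27).

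Col4a3 and Col4a4, which join Col4a5 in kidney glomeruli, and Col4a6, which neighbours Col4a5 on the X chromosome, were dim. Col4a6 measured 2.73, 2.86 and 2.74 in KO and 2.72, 2.72 and 2.61 in WT, with the KO arrays just above WT, a difference of 0.09 (-0.11 to 0.29, adjusted p = 0.817). Its second probe set gave 0.25 (0.02 to 0.49, adjusted p = 0.54), also with the KO arrays above WT. Col4a4 differed by -0.07 (-0.34 to 0.19) and Col4a3 by 0.05.

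The other 23 chains were split, 12 lower and 11 higher, with a median of -0.04. Type VI collagen, a beaded filament around cells and fat lobules, had a lower KO mean in its 3 main chains. Col6a3 measured 7.40, 7.21 and 7.49 in KO and 7.74, 7.85 and 7.60 in WT, without overlap. The difference was -0.36 (-0.60 to -0.12, adjusted p = 0.378) and -0.38 without KO replicate 1. Col6a2 measured 6.93, 7.22 and 7.35 in KO and 7.43, 7.54 and 7.39 in WT, a difference of -0.29 (-0.55 to -0.02, adjusted p = 0.536), and KO replicate 1 was the lowest. Without that array the difference was -0.17. Col6a1, outside the naming rule and added after its values were seen because it completes the trimer, measured 6.31, 6.85 and 6.80 in KO and 6.65, 7.11 and 6.81 in WT. Its groups overlapped, and the difference of -0.20 (-0.57 to 0.17, adjusted p = 0.778) was -0.03 without KO replicate 1. Col6a4 and Col6a5 differed by -0.07 and 0.03.

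Col14a1, a fibril-associated chain of dense connective tissue, had the lowest difference of all 42 chains. It measured 5.31, 5.63 and 6.02 in KO and 6.18, 6.61 and 6.09 in WT, without overlap but with KO replicate 3 close to WT replicate 3. The difference was -0.64 (-1.06 to -0.23, adjusted p = 0.373), a 1.56-fold lower level, and -0.47 without KO replicate 1. Its second probe set gave -0.40 with overlapping groups. Col12a1, the other fibril-associated chain above the upper quartile, differed by 0.07 (adjusted p = 0.941).

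Col7a1, the chain of the anchoring fibrils under stratified epithelia, measured 7.39, 7.34 and 7.38 in KO and 7.32, 7.26 and 7.28 in WT. The KO arrays lay above WT, and the difference was 0.08 (-0.10 to 0.27, adjusted p = 0.824). Among dim chains, Col9a3 of cartilage measured 3.50, 3.22 and 3.34 in KO and 3.17, 2.93 and 2.99 in WT, a difference of 0.32 (0.08 to 0.56, adjusted p = 0.426). That difference was 0.25 without KO replicate 1, and the other Col9a3 probe sets gave 0.11 and -0.17. Col20a1 measured 4.28, 4.05 and 4.09 in KO and 3.92, 4.01 and 3.73 in WT, a difference of 0.25 (0.01 to 0.49, adjusted p = 0.552). That difference was 0.19 without KO replicate 1, and 3 further Col20a1 probe sets gave -0.11 to 0.16. Col26a1 measured 3.09, 2.88 and 2.95 in KO and 2.95, 2.42 and 2.67 in WT, a difference of 0.29 (-0.01 to 0.59, adjusted p = 0.59). It was 0.16 without WT replicate 2, and its other probe set gave -0.01. The 16 chains of this class not named by the rule, Col6a1 included, differed by -0.23 to 0.07, with no unadjusted p below 0.0646.

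Probe sets of a chain could be compared where 2 or more lay above the upper quartile, in 7 chains. In 6 of these, Col1a1, Col1a2, Col3a1, Col4a1, Col5a1 and Col6a2, each such probe set was lower in KO, and Col18a1 was the exception. Some chains are neighbours on a chromosome. Col3a1 and Col5a2 differed by -0.50 and -0.48, Col4a1 and Col4a2 by -0.25 and -0.21, and Col6a1 and Col6a2 by -0.20 and -0.29. The neighbours Col9a1 and Col19a1 (0.04 and 0.01), Col4a5 and Col4a6 (0.01 and 0.09), Col6a5 and Col6a4 (0.03 and -0.07) and Col4a3 and Col4a4 (0.05 and -0.07) lay near 0, with opposite signs in the Col6a5 and Col4a3 pairs.

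Array by array, the brighter chains varied within the genotypes as well as between them. For each chain the level in an array was set against its mean over the 6 arrays. The median of this deviation over the 6 brighter fibrillar chains was -0.37, -0.19 and -0.05 in KO replicates 1, 2 and 3 and 0.21, 0.35 and 0.05 in WT replicates 1, 2 and 3. The genotypes did not overlap, but KO replicate 3 and WT replicate 3 lay next to each other. KO replicate 1 was the lowest array in 8 of the 17 brighter chains and KO replicate 2 in 6, where these arrays were lowest in 22.1% and 21.9% of the 7159 genes above that level. WT replicate 2 was the highest in 10 of the 17, against 21.6% of those genes.

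Markers of fat and mesothelium gave part of the same order of arrays. The 7 measured adipocyte markers had a summed linear level of 586 to 1964 in KO and 1365 to 3404 in WT, lowest in KO replicate 1 and highest in WT replicate 2. Of these markers 5 of 7 were lower in KO, with none at an unadjusted p under 0.05. Adiponectin (Adipoq) measured 2.26 in KO replicate 1, below the arrays' median, against 5.12 to 6.99 elsewhere, and Fabp4 differed by -0.44. The 5 mesothelial markers were all lower in KO by their group means, with none at an unadjusted p under 0.05. Without KO replicate 1, 2 of the 5 were lower and 3 higher, with a median of 0.04 in place of -0.23, and the adipocyte list had 4 of 7 lower and a median of -0.01 in place of -0.21. The summed level of the mesothelial list was 73.9 to 141 in KO and 109 to 146 in WT, again lowest in KO replicate 1 and highest in WT replicate 2, with Krt19 at -0.26 and Wt1 at -0.20. Krt19 is also a member of the duct list below. The part of this tissue in the collagen values was not tested. Without KO replicate 1, the median over the brighter fibrillar chains was -0.33 in place of -0.45, with 6 of 6 lower, and over the brighter other chains -0.10 in place of -0.24.

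**Figure D3:**
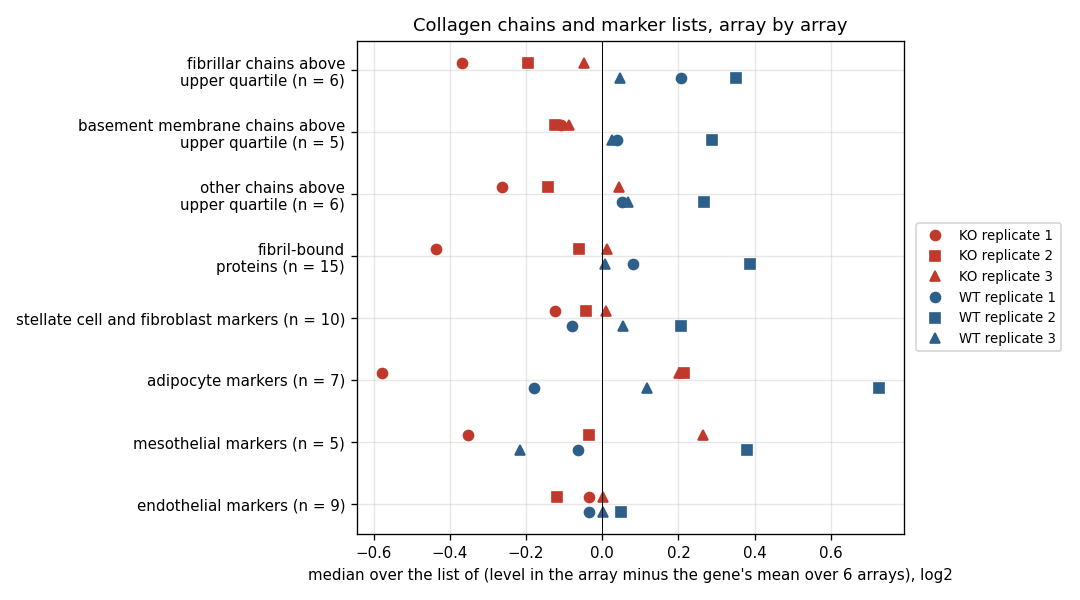
Median over each list of the level in an array minus the gene's mean over the 6 arrays (log2), with KO arrays in red, WT arrays in blue and the replicate given by the symbol. In the 6 brighter fibrillar chains the KO arrays lie at -0.37 to -0.05 and the WT arrays at 0.05 to 0.35, whereas the adipocyte markers put KO replicate 1 at -0.58 and WT replicate 2 at 0.73 with the other arrays mixed.

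Markers of the cells that make fibrillar collagen gave mixed values. Of 10 stellate cell and fibroblast markers 8 were lower, with a median of -0.07, and 3 had an unadjusted p under 0.05, all lower, where 5.58% of all genes were. Without KO replicate 1 the median was -0.02 and only Rgs5 of the list had such a p. Rgs5, a marker of pericytes, measured 7.49, 7.16 and 7.50 in KO and 7.78, 7.93 and 7.87 in WT, a difference of -0.48 (adjusted p = 0.268). The contractile gene Acta2, a marker of activated stellate cells and of smooth muscle, measured 6.34, 7.02 and 7.03 against 7.07, 7.24 and 7.52, a difference of -0.48 (adjusted p = 0.512) that was -0.26 without KO replicate 1. Both showed no overlap between the groups, and no other marker of the 10 did so (KO wholly below WT in 7.56% of all genes). The receptors that define these cells differed by -0.05 for Pdgfra and -0.02 for Pdgfrb, which were named after their values were seen, as the defining markers. The summed level of the list was 650 to 825 in KO and 818 to 1021 in WT. Of 6 smooth muscle markers 4 were lower, with a summed level of 75.9 to 96.0 in KO and 93.0 to 105 in WT and Tagln at -0.46 (-0.25 without KO replicate 1). Endothelial markers had 7 of 9 lower, a median of -0.08 and summed levels of 363 to 383 in KO and 386 to 404 in WT, with Tek at -0.33. The part of these cells in the collagen values was not tested.

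Genes that serve collagen were read from 7 lists by function, of which 94 genes were measured and 0 passed in limma (15 had an unadjusted p under 0.05, 13 lower and 2 higher, where 5.58% of all genes were lower and 4.55% higher). Over all genes 50.2% were lower in KO, and 61.6% of those above the upper quartile. Enzymes and chaperones of chain hydroxylation, glycosylation and folding were lower in 17 of 19, with a median of -0.14. Colgalt1, which adds galactose to hydroxylysine, differed by -0.28 (adjusted p = 0.477) and Serpinh1, the collagen chaperone HSP47, by -0.23 (adjusted p = 0.536). In both, the KO arrays lay wholly below WT, as in 4 of the 19 (7.56% of all genes). Creb3l1, a transcription factor of collagen-secreting cells, differed by -0.17. With all arrays 2 of the 19 were lower and 0 higher at an unadjusted p under 0.05 in limma. Without KO replicate 1, 16 of 19 were lower, with 0 lower and 1 higher at that p. Colgalt1 then differed by -0.24, Serpinh1 by -0.18 and P4ha2, the higher gene, by 0.31.

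Genes that cleave procollagen and crosslink fibrils showed no common direction, with 4 of 10 lower and a median of 0.02. The lysyl oxidase relative Loxl1 measured 4.69, 5.56 and 5.70 in KO and 5.61, 5.90 and 5.46 in WT, a difference of -0.34 (adjusted p = 0.735) in which KO replicate 1 stood far below the rest, and it was -0.03 without that array. Loxl4 differed by 0.16 and the procollagen cleavage enhancer Pcolce by -0.11. Tgfb ligands and their effectors had 10 of 14 lower with a median of -0.09. Smad3, which carries the TGF-beta signal to the nucleus, measured 5.88, 6.00 and 5.98 in KO and 6.41, 6.29 and 6.32 in WT, a difference of -0.38 (adjusted p = 0.25) with close replicates and no overlap. Smad7, the inhibitor that the same signal induces, differed by -0.29 (adjusted p = 0.485), and Tgfbr2 by -0.26.

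Of 15 genes of fibril-bound proteoglycans and glycoproteins 14 were lower, with a median of -0.28. Without KO replicate 1, 11 of 15 were lower and the median was -0.13, next to -0.14 for the hydroxylation and folding list. Periostin (Postn), a matricellular protein of collagen-rich tissue, measured 5.56, 6.30 and 6.16 in KO and 6.88, 7.02 and 6.57 in WT, a difference of -0.82 (adjusted p = 0.256) that was -0.59 without KO replicate 1. The small leucine-rich proteoglycans Ogn and Bgn, which coat fibrils, differed by -0.58 and -0.43 (adjusted p = 0.368 and 0.375). The groups did not overlap in any of these 3 genes, which were the only such genes of the 15. Over all genes, the KO arrays lay wholly below WT in 7.56%.

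Laminins, nidogens and other partners of type IV collagen were lower in 11 of 14, with a median of -0.14. The KO arrays lay wholly below WT in 5 and wholly above in 1, against 7.56% and 6.87% of all genes. The laminin chains Lamb3 and Lama2 differed by -0.35 and -0.28 (adjusted p = 0.389 and 0.394) without overlap, and nidogen Nid1, which links laminin to type IV collagen, by -0.39 (adjusted p = 0.454) with overlap. Collagen receptors had 4 of 9 lower and a median of 0.03. Ddr2, a receptor tyrosine kinase for fibrillar collagen, measured 5.76, 5.95 and 5.91 in KO and 5.28, 5.67 and 5.72 in WT, a difference of 0.32 (adjusted p = 0.514), opposite in sign to the fibrillar chains. Among proteases and their inhibitors 8 of 13 were lower, with a median of -0.12. Mmp14, the membrane collagenase, differed by -0.31 and Mmp2, the gelatinase that it activates, by -0.30 (adjusted p = 0.374 and 0.523), whereas the gelatinase Mmp9, a product of inflammatory cells, differed by 0.26 (adjusted p = 0.504) at a dim level.

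**Figure D4:**
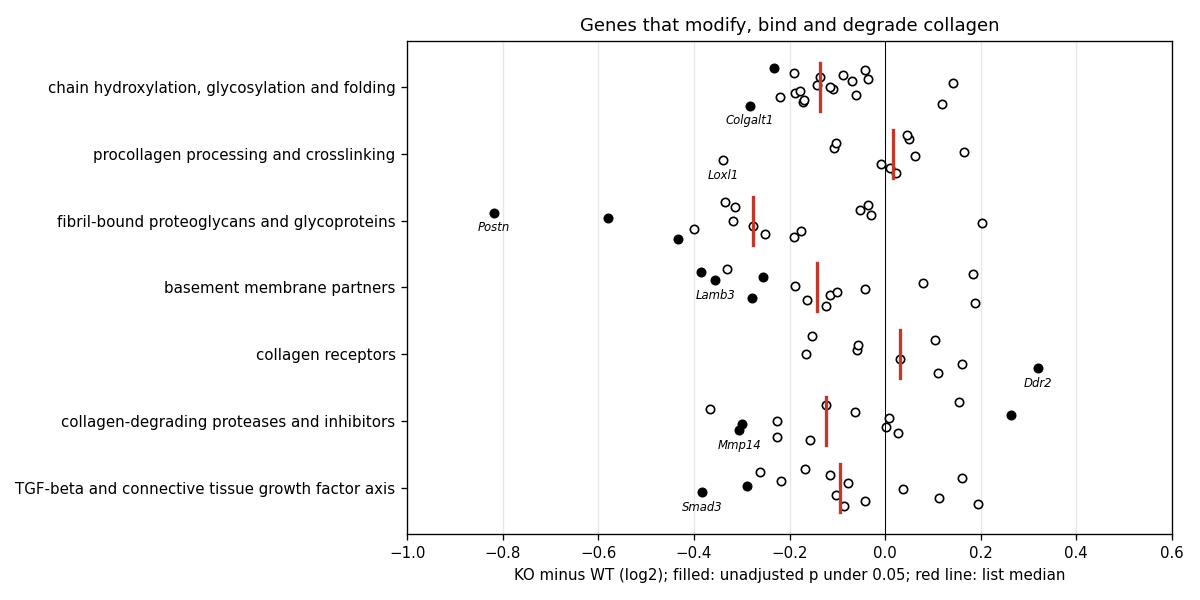
Difference between genotypes, KO minus WT on the log2 scale, for 94 genes in 7 lists of collagen partners, 1 point per gene (brightest probe set), filled where the unadjusted p is under 0.05, with a red line at each list's median. The median of the fibril-bound list lies at -0.28 with all arrays (-0.13 without KO replicate 1), and Postn at -0.82 lies farthest to the left.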

How the data were processed

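The authors deposited log2 expression values for each probe set, and the submitters' processing notes name affy and RMA as the tools. Their settings and the genome build were not given in the sources used here. RMA brings the arrays close to one distribution, which hides a shift common to most genes. The upper quartiles here still differed, at 4.527 to 4.534 in KO arrays and 4.538 to 4.564 in WT arrays. The table used here holds no detection calls. Of 45101 probe sets, 64 Affymetrix controls were left out. The platform annotation gave symbols, updated by Entrez identifier through RefSeq GRCm38.p6.

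Genotypes were compared with lmFit and eBayes of limma 3.58.1 (R 4.3.3), KO minus WT, two-sided, with no covariate. P-values were adjusted by Benjamini-Hochberg over 45037 probe sets, and the threshold was 0.05. The brightest single-symbol probe set stood for a gene. Intervals are 95%, with 9.53 degrees of freedom. The number of arrays limits the precision. The p-values set a difference against the spread between these samples, moderated over all probe sets.

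Members and gene lists were chosen with earlier results of these data known. The naming rule took, per class, the 6 chains of smallest p and the 3 brightest, chains past the threshold or with discordant probe sets (opposite signs, or over 0.5 apart, among those above the upper quartile), up to 3 genes per partner list and up to 2 per cell type list. The cell type lists of the pancreas and of tissues near it were described by counts. Promoters came from a RefSeq table that matched 33 of 42 chains. The values of the cell type lists without KO replicate 1 were added after the data were seen. The fit was tested on simulated data. Figures were drawn with matplotlib 3.10.9.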

Additional observations from a re-analysis of the deposited data

How the results depend on the processing

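No collagen chain and no partner gene passed under any of 16 alternatives. These renormalized the arrays by quantiles or by their medians, dropped dim probe sets, fitted the variance against intensity robustly, weighted arrays, blocked on replicate number, left out each array, averaged a gene's probe sets, dropped _s_at and _x_at sets, added Xist as a covariate or used an adjusted p under 0.1. Pebp1 passed throughout, at -5.30 to -3.68. The number of chains lower at an unadjusted p under 0.05 ran from 7 to 11. The share of all genes lower at that p was not counted under the alternatives. Of 20 chains named by the rule, 18 kept their sign in every setting that measured them, and Col4a6, Col26a1 and Col4a4 were not measured once dim probe sets were dropped. Col4a5 turned to -0.0111 with equal medians, -0.1334 with the mean of its probe sets and -0.0016 with the Xist covariate, and ran from -0.1108 to 0.0843 with an array left out (below 0 without KO replicate 2 or WT replicate 3). Col4a4 turned to 0.0185 with the mean and 0.0082 with the Xist covariate, and ran from -0.1803 to 0.0145 with an array left out (above 0 without WT replicate 1). The median over the brighter other chains ran from -0.33 to -0.10 with an array left out, lowest in size without KO replicate 1. With the replicate block 9 chains were lower at an unadjusted p under 0.05. After the genotype mean of each probe set was subtracted, the remaining values of same-numbered samples correlated at 0.19, -0.03 and -0.08. Samples of unlike number ran from -0.16 (KO replicate 2 with WT replicate 1) to 0.18 (KO replicate 2 with WT replicate 3). The labels do not say whether the numbers pair the samples, and 3 arrays per group are too few to decide it. Signal limits what the 25 dim chains can show.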

Other observations

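Further cell type lists were read in the same way. Of 8 acinar markers 7 were lower in KO, with a median of -0.02, and Ptf1a, an acinar transcription factor, differed by -0.56 (limma, adjusted p = 0.52) while Bhlha15 differed by -0.18. Of 8 islet markers 7 were lower, with a median of -0.10, among them the hormone genes Ppy at -0.30 and Iapp at -0.14. The 6 duct markers, which share Krt19 with the mesothelial list, had 3 lower and 3 higher. Sox9, a transcription factor of duct cells, measured 6.42, 5.80 and 6.13 in KO and 5.78, 5.39 and 5.62 in WT, a difference of 0.52 (adjusted p = 0.389) without overlap. Of 9 immune markers 4 were lower, with a median of 0.00, Adgre1 of macrophages at -0.26 and Cd3e of T cells at 0.24. Without KO replicate 1, 2 of the 9 immune markers were lower with a median of 0.18, and the islet median was -0.05. The 3 Schwann cell markers had a median of 0.09, with Sox10 at 0.22, and the 2 lymph node stroma markers, Cxcl13 and Madcam1, differed by 0.10 (0.77 without KO replicate 1) and -0.04.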
